A study of Mus musculus with 3 samples.

Results

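Immediate early transcription factors were followed through single-cell RNA libraries of macrophages sorted from mouse hearts. The 10 members were taken by gene symbol from the 30406 genes that all libraries list: Fos, Fosb, Jun, Junb, Jund, Atf3, Egr1, Nr4a1, Klf4 and Ier2. All 10 were found, and all had at least 20 unique molecular identifiers (UMIs, which mark single captured RNA molecules) in every comparison below. The rule names the genes and uses no measured value of its own, but the list was drawn up with earlier results of these data known. The mice were wild type and 32 to 34 weeks old. They had received control diet (CD), high-fat diet (HFD) or Western diet (WD), and 1 droplet library (10x Genomics) stands for each. Hearts were flushed, minced and digested with collagenase, and cells positive for CD45, F4/80 and CD11b were sorted, with doublets and dead cells gated out. The labels do not give the make-up or length of the diets or the number of mice behind a library.

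Immediate early genes are transcribed soon after a stimulus by factors already present in the cell, without new protein synthesis. Fos and Jun proteins pair through leucine zippers to form AP-1, Atf3 is a stress-induced protein of the same basic leucine zipper class, and Egr1, Nr4a1 and Klf4 bind DNA through zinc fingers. Macrophages switch these genes on during inflammatory activation, and enzymatic dissociation of tissue is also known to induce them. The labels describe the same digestion for all 3 libraries, and its part in the values below was not tested.

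Promoter sequence describes these genes outside the counts. The 250 bases before the RefSeq start (GRCm38.p6) were available for 8 members and were searched on both strands for fixed motifs. TGACG, the core of the cAMP response element, was found in 6 of the 8 windows, against 17.9% of all 32536 distinct windows of that length. GCGNGGGCG, the site of EGR factors, was found in 3 of the 8 (Fosb, Nr4a1 and Klf4), against 4.74%, and the TATA box TATAAA in 1 (Fos), against 12.3%. The GC box GGGCGG was found in 6, against 33%, and CCAAT in 2, against 33.8%. The full element TGACGTCA, which contains TGACG (1.56% of all windows), the AP-1 site TGANTCA (6.73%) and the CArG box of serum response factor (1.48%) were found in 0 of 8. G and C made up 47.6% of the Jund window and 58.4% (Fos) to 74.4% (Nr4a1) of the others. The median over all windows was 52.4%, and the motif counts were not matched for this share. A match of letters only describes the window. The windows of 4 members are printed: Fos as the founding member of its family, and Fosb, Atf3 and Nr4a1, which had the largest CD to HFD ratios in C1q cells among the 8. They run 5′ to 3′ on the strand of the gene, and capitals mark TGACG, GCGNGGGCG and TATAAA on either strand.
Fos, chr12:85473640-85473889, plus strand: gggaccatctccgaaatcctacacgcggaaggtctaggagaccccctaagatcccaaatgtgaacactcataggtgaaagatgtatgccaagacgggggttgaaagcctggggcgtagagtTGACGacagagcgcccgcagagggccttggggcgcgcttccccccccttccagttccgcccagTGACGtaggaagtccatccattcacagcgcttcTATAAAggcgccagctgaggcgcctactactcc
Fosb, chr7:19310046-19310295, minus strand: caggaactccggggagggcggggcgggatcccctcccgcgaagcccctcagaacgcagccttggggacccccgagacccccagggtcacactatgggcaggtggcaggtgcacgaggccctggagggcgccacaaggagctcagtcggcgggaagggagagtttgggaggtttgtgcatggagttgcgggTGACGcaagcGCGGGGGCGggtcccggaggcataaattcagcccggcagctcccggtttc
Atf3, chr1:191183334-191183583, minus strand: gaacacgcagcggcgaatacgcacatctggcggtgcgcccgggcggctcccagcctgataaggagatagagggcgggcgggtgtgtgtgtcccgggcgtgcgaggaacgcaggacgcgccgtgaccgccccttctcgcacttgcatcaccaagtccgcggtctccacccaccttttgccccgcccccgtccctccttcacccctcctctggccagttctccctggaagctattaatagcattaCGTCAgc
Nr4a1, chr15:101266596-101266845, plus strand: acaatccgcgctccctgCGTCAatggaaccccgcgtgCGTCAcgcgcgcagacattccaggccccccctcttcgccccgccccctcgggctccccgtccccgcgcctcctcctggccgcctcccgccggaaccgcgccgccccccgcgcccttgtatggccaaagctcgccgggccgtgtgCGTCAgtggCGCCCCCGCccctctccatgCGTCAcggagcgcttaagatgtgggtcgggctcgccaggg
The Fos window holds TGACG 129 and 66 bases before the start and TATAAA 33 bases before it. Fosb has TGACG 60 bases and the EGR site 50 bases before its start. Atf3 has TGACG 7 bases before its start, and Nr4a1 has 4 matches to TGACG, the farthest at 233 and the nearest at 40 bases, with the EGR site at 60 bases. The Fosb and Atf3 windows overlap GENCODE exons by 6 and 7 bases. RefSeq starts Atf3 and Nr4a1 inside the longer GENCODE genes, 34706 and 12577 bases from the first GENCODE start. The Jund window had no match to any of these motifs; RefSeq starts that gene 1210 bases before GENCODE does, so the window may not lie at the start used in these cells.

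Of all barcodes, 2679 (CD), 2717 (HFD) and 4775 (WD) passed the limits of 1000 UMIs, 200 genes and 10% mitochondrial UMIs. Cells in which C1qa, C1qb and C1qc, complement genes of macrophages, made up 0.3% of UMIs or more are called C1q cells. They numbered 2293, 2002 and 3717 in the same order, with median depths of 4319, 2954 and 12242 UMIs. The rule for endothelial cells (Pecam1 or Cdh5 detected, C1q below 0.3%) took 197, 487 and 155 cells, and 189, 228 and 903 others remained. The CD and HFD cells of this gate met the endothelial label: the 12 endothelial markers summed to 31779 and 26909.6 CPM (UMI counts scaled to a common total), with Cdh5 at 695 and 685 CPM. The WD cells did not. Their endothelial markers summed to 201 CPM, of which Pecam1 gave 149, Cdh5 stood at 1.32 CPM and Egfl7 and Tie1 at 0. Macrophage markers reached 5831 CPM in them, natural killer markers 1442, monocyte markers 758, fibroblast markers 712 and neutrophil markers 615. These WD cells are therefore called Pecam1 cells. Erythroid markers reached 30938 CPM in the CD endothelial cells and 5.89 CPM in those of HFD. Cell barcodes shared between libraries numbered 15 (HFD and CD), 1 (WD and CD) and 0 (WD and HFD).

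The WD library stands apart in how its reads were counted. Per the file headers it was counted with software version 7.2.0, and CD and HFD with 3.0.1. The handling of intronic reads is unknown here. Over genes with at least 100 UMIs in C1q cells, the WD to CD ratio followed intron length: the median log2 ratio was -0.67 over 844 genes with under 1000 bases of intron and 2.59 over 1323 genes with 100000 or more. For HFD to CD the medians of the same bins lay between -0.09 and 0.01. Each diet is 1 library, so no difference between diets could be set against the spread between animals, and none was tested. Intervals are exact 95% intervals that cover counting error only. A gene is counted as higher or lower at a 1.5-fold difference in CPM. Levels were compared between libraries and not between genes, since the assay counts molecules at 1 end of a transcript.

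In C1q cells of the HFD library, 9 of the 10 members were lower than in CD, against 8.41% of the 11239 genes tested, and 0 were higher, against 6.74%. The median log2 ratio of the members was -1.76, and that of all genes tested -0.03. Fos, which cannot pair with itself and acts with a Jun partner, stood at 1673 CPM (CD), 469 CPM (HFD) and 3683 CPM (WD). Its HFD level was 3.57-fold (3.43 to 3.71) below CD. Fosb, its close relative, stood at 224 CPM (CD), 49.4 CPM (HFD) and 1965 CPM (WD), and was 4.53-fold (4.03 to 5.09) lower in HFD than in CD. Both genes were lowest in HFD and highest in WD, and their counting intervals did not overlap between libraries. The 5 neutrophil markers summed to 812, 121 and 1189.8 CPM in the C1q cells of CD, HFD and WD, the same order as the members. All 5 were lowest in HFD, 4 of 5 were highest in WD, and none was at 0. The 10 macrophage markers summed to 40846, 46453 and 20044 CPM, and the part of either in the member levels was not tested.

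The Jun family split. Jun, the founding AP-1 subunit (chr4:95049034-95052222, minus strand, 1 exon), stood at 1005 CPM (CD), 424 CPM (HFD) and 2931 CPM (WD). It was 2.37-fold (2.28 to 2.47) lower in HFD than in CD. Junb, which can restrain Jun at its targets (chr8:84974484-84978718, minus strand), stood at 1249.9 CPM (CD), 386 CPM (HFD) and 2517 CPM (WD), 3.24-fold (3.10 to 3.38) lower in HFD. Jund, the subunit that many resting cells express constitutively (chr8:70698949-70700616, plus strand, 1 exon), stood at 1207 CPM (CD), 1112 CPM (HFD) and 1885 CPM (WD). Its HFD level was 1.09-fold (1.05 to 1.12) below CD, short of the 1.5-fold limit and the smallest of the 10 differences. Counted genes on the opposite strand overlap Jun, Junb and Jund, and the use of strand in counting is not known here. In C1q cells the antisense gene Junos at Jun gave 22 UMIs (CD), 7 (HFD) and 1392 (WD), against 11445, 2795 and 175408 for Jun. Prdx2 at Junb gave 2775, 1435 and 5896 UMIs, against 14236, 2549 and 150609 for Junb.

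The members outside the Fos and Jun families were lower in HFD as well. Atf3, which represses or activates its targets after many stresses, stood at 215 CPM (CD), 50.8 CPM (HFD) and 1905 CPM (WD). It was 4.24-fold (3.78 to 4.77) lower in HFD than in CD. Egr1, a zinc finger protein induced by growth factors, stood at 284 CPM (CD), 67.4 CPM (HFD) and 1251 CPM (WD), 4.22-fold (3.82 to 4.67) lower in HFD. Nr4a1, an orphan nuclear receptor, stood at 45.5 CPM (CD), 5.76 CPM (HFD) and 249 CPM (WD). Its 38 UMIs in HFD, against 518 in CD, gave the largest of the 10 ratios with the widest interval, 7.90-fold (5.68 to 11.3). Klf4, a factor of monocyte differentiation, stood at 272 CPM (CD), 108 CPM (HFD) and 1317 CPM (WD), 2.52-fold (2.33 to 2.74) lower in HFD. Ier2, a small nuclear protein, stood at 514 CPM (CD), 242 CPM (HFD) and 753 CPM (WD), 2.12-fold (2.004 to 2.24) lower. In C1q cells all 10 members had their lowest level in HFD and their highest in WD.

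**Figure D1:**
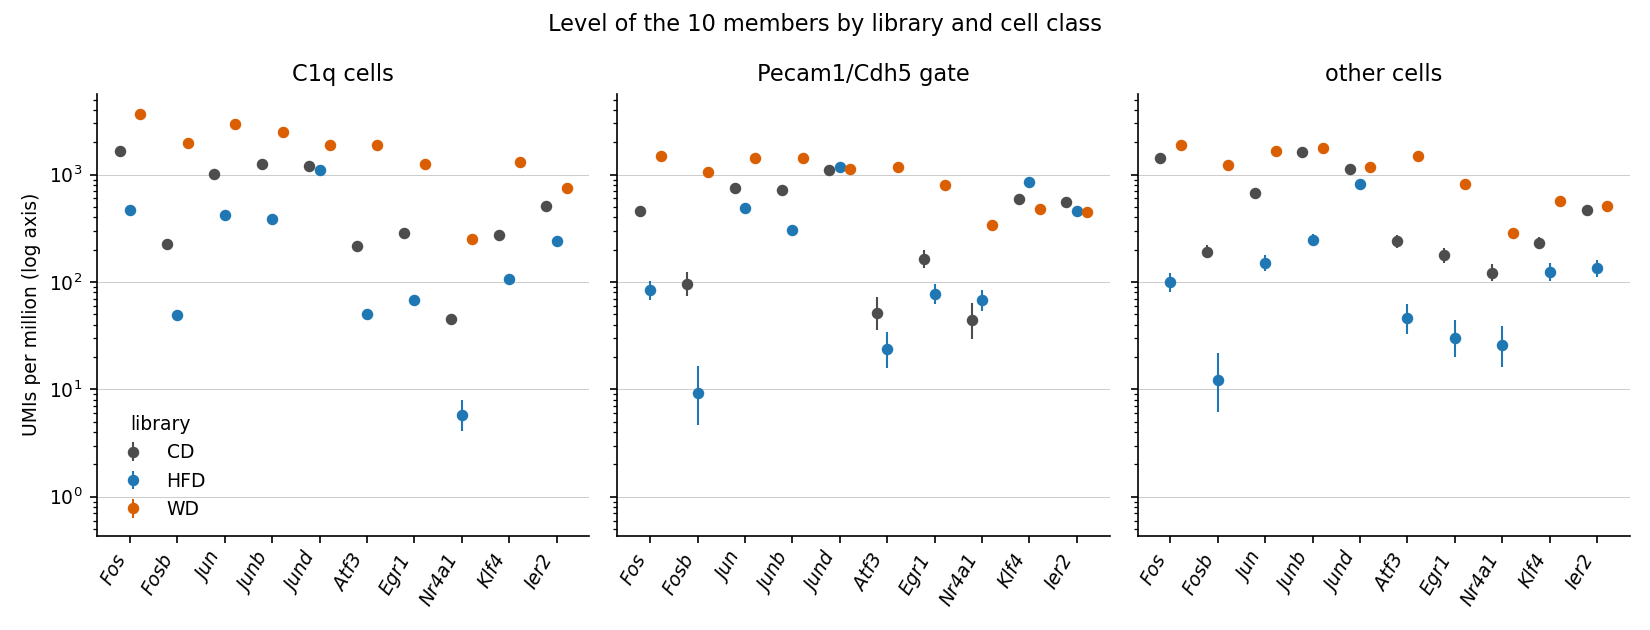
Level of each member in CPM (log axis) in C1q cells, cells of the Pecam1 or Cdh5 gate and other cells of the CD, HFD and WD libraries; points are sums over the cells of 1 library and bars exact 95% Poisson intervals, which cover counting error only. In C1q cells Fos reads 469 in HFD, 1673 in CD and 3683 in WD, whereas Jund reads 1112, 1207 and 1885.

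In the WD library 9 of the 10 members were higher than in CD in C1q cells and 0 were lower. The background of this comparison is wide: 46.5% of the 14467 genes tested were higher and 26.8% lower. Atf3 was 8.85-fold (8.50 to 9.21) higher and Fosb 8.79-fold (8.45 to 9.14). Nr4a1 was 5.48-fold (5.02 to 6.00) higher, Klf4 4.85-fold (4.68 to 5.03) and Egr1 4.399-fold (4.25 to 4.56). Jun was 2.92-fold (2.86 to 2.97) higher, Fos 2.20-fold (2.17 to 2.23), Junb 2.01-fold (1.98 to 2.05) and Jund 1.56-fold (1.53 to 1.59). Ier2, at 1.47-fold (1.43 to 1.51), did not reach the limit. The log2 ratio of Jund ran from 0.26 to 1.07 under other settings and fell below the 1.5-fold limit in some of them. The stress factor Atf3 and Fosb thus had the largest WD ratios, and Jund and Ier2 the smallest, before intron length was considered. The median log2 ratio of the members was 1.84, and that of all genes tested 0.44. In the median C1q cell the C1q genes made up 2.17% of UMIs in CD and 0.80% in WD. With C1q cells taken at 1% or more, 2117 CD and 1078 WD cells remained, and the members' median was 1.35.

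Intron length moved with the WD ratios over all genes, so each member was set beside genes of like intron length. Jun, Jund and Ier2 have no intron, Egr1 has 678 bases, Fos 1032, Fosb 1113, Junb 1934 and Klf4 2275. Among the 3137 tested genes with under 5000 bases of intron, 22.3% were higher in WD than in CD and 52.5% lower, whereas 7 of these 8 members were higher and 0 lower. Nr4a1 has 17018 bases of intron and Atf3 45590. These lengths cover the whole GENCODE gene, whereas RefSeq starts Nr4a1 and Atf3 12577 and 34706 bases inside it. The bins of these 2 genes, and their place in the order below, therefore depend on the form used, and shorter forms were not compared. All 10 members lay above the median of their intron bin, by 1.22 (Ier2) to 4.01 (Fosb) on the log2 scale. Klf4 lay 3.15 above its bin, Egr1 2.81, Nr4a1 2.72, Jun 2.22 and Atf3 2.20. Fos, Junb, Jund and Ier2 lay less far above theirs than Atf3. In HFD against CD all 10 lay below the median of their bin, with log2 differences of -0.03 (Jund) to -2.93 (Nr4a1).

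The comparison of WD with HFD uses libraries that also enter both comparisons above and is no independent evidence. In C1q cells 10 of 10 members were higher in WD and 0 lower, where 44.2% of the 14412 genes tested were higher and 25.9% lower. The log2 ratio of Jund ran from 0.36 to 1.17 under other settings, and 2 of them put it below the 1.5-fold limit. Nr4a1 was 43.3-fold (31.5 to 61.2) higher, Fosb 39.8-fold (35.7 to 44.5) and Atf3 37.5-fold (33.7 to 41.9). Egr1 was 18.6-fold (16.9 to 20.4) higher and Klf4 12.2-fold (11.4 to 13.2). Fos, Jun and Junb were 7.85-fold, 6.92-fold and 6.51-fold higher, and Ier2 and Jund 3.11-fold and 1.70-fold. The 10 members together took 6689 CPM (CD), 2915 CPM (HFD) and 18456 CPM (WD).

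Endothelial cells, which line vessels and were present in the CD and HFD libraries, shared part of this pattern. Of the 10 members, 6 were lower in HFD than in CD, against 9.09% of the 7853 genes tested, and 1 was higher, against 14.1%. Fos had 457 CPM in CD against 83.3 in HFD, 5.48-fold (4.35 to 6.95) lower. Fosb, from 63 UMIs in CD and 11 in HFD, was 10.4-fold (5.43 to 21.9) lower. These Fos family ratios were the largest among the 10 here. Junb was 2.36-fold (2.05 to 2.71) lower, Atf3 2.20-fold (1.30 to 3.77), Egr1 2.11-fold (1.58 to 2.82) and Jun 1.55-fold (1.37 to 1.75). Ier2, at 556 and 461 CPM, and Jund, at 1110.4 and 1168 CPM, lay within 1.5-fold of CD. Other cell types' markers differed between the endothelial cells of CD and HFD as well: mural markers summed to 33.6 and 1921 CPM, fibroblast markers to 806 and 116 CPM and cardiomyocyte markers to 1317 and 386 CPM. Their part in the member levels, and that of the erythroid difference, was not tested.

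Klf4 and Nr4a1 went the other way in endothelial cells. Klf4, which endothelium under steady flow is known to express, had 591 CPM in CD against 856 in HFD, 1.45-fold (1.29 to 1.63) higher, while in C1q cells of the same libraries it was 2.52-fold lower. The endothelial difference is within the 1.5-fold limit. Nr4a1 had 44.3 and 68.2 CPM, 1.54-fold higher, with an interval of 0.996 to 2.44 that includes equality. Cells whose leading marker list was endothelial, after thinning to 1000 UMIs, numbered 205 in CD and 498 in HFD. In them Klf4 was 1.499-fold (1.33 to 1.69) higher and Fos 6.94-fold (5.38 to 9.05) lower. The count of members higher in HFD in endothelial cells was 0 to 2 under other settings. The difference between the cell classes was not tested.

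The Pecam1 cells of WD are nearly without endothelial markers other than Pecam1, so their ratios to the CD endothelial cells compare unlike cells. In them 7 members were higher than in the CD gate, against 43.7% of the 10054 genes tested, and 0 were lower, against 33.5%. Atf3 had 1184 CPM against 51.9 in CD, Fosb 1057 against 96.2, Nr4a1 337 against 44.3 and Fos 1504 against 457. Jund had 1118 against 1110.4 CPM. Klf4 (476 against 591 CPM) and Ier2 (446 against 556 CPM) stood below the CD endothelial cells, within the 1.5-fold limit.

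**Figure D2:**
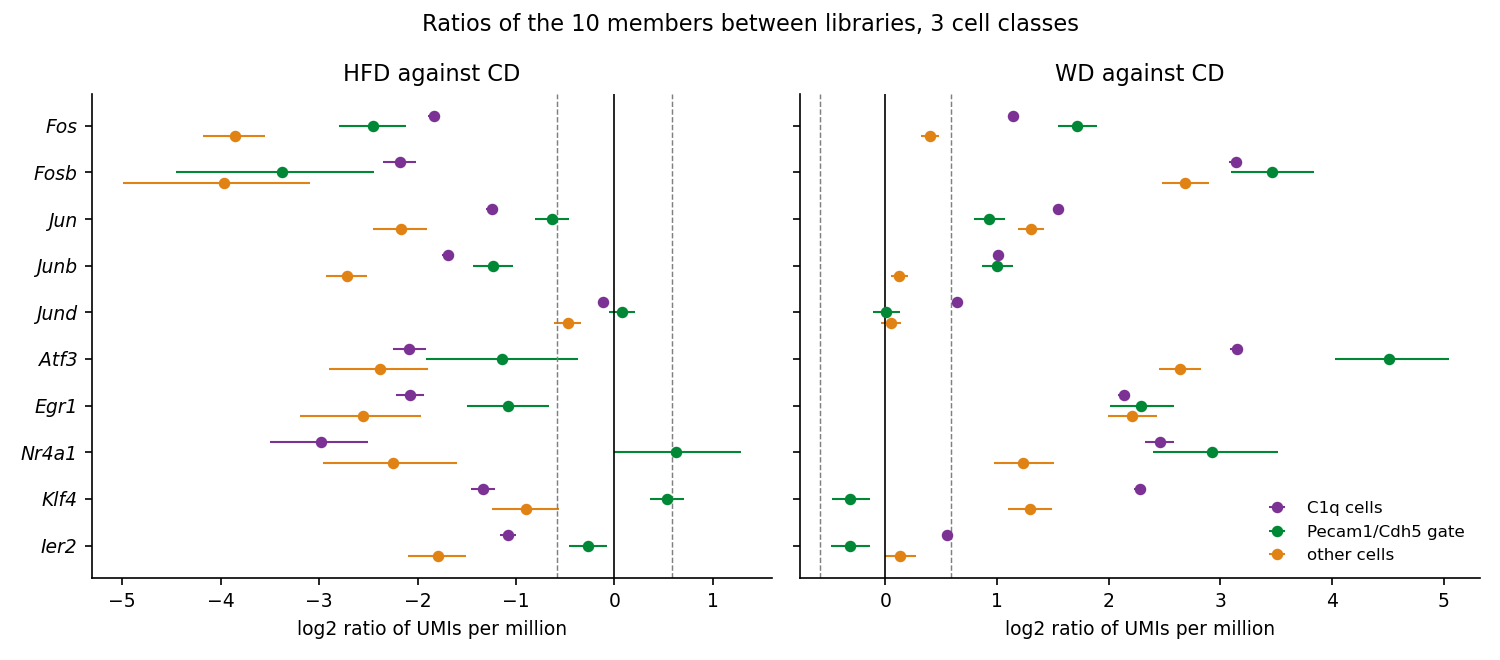
Log2 ratio of each member, HFD to CD and WD to CD, in C1q cells, cells of the Pecam1 or Cdh5 gate and other cells; bars are exact 95% conditional intervals for counting error and dashed lines mark 1.5-fold. Both panels share the CD library. For HFD to CD, Fos lies between -3.86 and -1.83 in the 3 classes, Jund between -0.47 and 0.07, and Klf4 at 0.53 in the gate against -1.34 in C1q cells.

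Cells in neither class hold several cell types in proportions that differ between libraries. In them 9 of 10 members were lower in HFD than in CD, against 18% of the 7182 genes tested, and 0 were higher, against 12.8%. Fos had 1439.7 CPM in CD against 99.4 in HFD, 14.5-fold (11.7 to 18.2) lower, and Fosb 192 against 12.3 CPM, 15.6-fold (8.54 to 31.9) lower. Junb was 6.57-fold (5.71 to 7.60) lower, Egr1 5.87-fold (3.90 to 9.16), Atf3 5.21-fold (3.73 to 7.45) and Nr4a1 4.76-fold (3.03 to 7.80). Jun was 4.51-fold (3.74 to 5.47) lower, Ier2 3.47-fold (2.84 to 4.28) and Klf4 1.87-fold (1.48 to 2.36). Jund, with 1134 and 816 CPM, was 1.39-fold (1.26 to 1.53) lower and again short of the limit. Against CD, 6 members were higher in WD, against 44.3% of the 12143 genes tested, and 0 were lower, against 27.9%. Fosb was 6.41-fold higher, Atf3 6.22-fold, Egr1 4.63-fold, Jun 2.47-fold, Klf4 2.45-fold and Nr4a1 2.35-fold. Fos (1.32-fold), Ier2 (1.10-fold), Junb (1.09-fold) and Jund (1.03-fold) lay within the limit. With C1q cells taken at 1% or more, 10 members were higher in WD in other cells, against 40% of 14295 genes. That class then held 3173 WD cells, of which 2270 were C1q cells at the limit of 0.3%.

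Across the classes, 6 members (Fos, Fosb, Jun, Junb, Atf3 and Egr1) were lower in HFD than in CD in all 3, against 0.693% of the 6202 genes tested in all 3. In both C1q and other cells 9 were lower, against 2.85% of 7008 genes. Jund was called in none of the 3 classes. Klf4, Nr4a1 and Ier2 were lower in HFD in C1q and other cells and not in endothelial cells. Between WD and CD, 5 members (Fosb, Jun, Atf3, Egr1 and Nr4a1) were higher in all 3 classes, against 32.3% of 9827 genes, and 6 in both C1q and other cells, against 37.5% of 11926. The gate among those 3 classes sets Pecam1 cells of WD against endothelial cells of CD, so it compares unlike cells.

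Subsets of C1q cells kept the order of the libraries. Resident-marked cells (Timd4, Lyve1 or Folr2 detected in 1000 drawn UMIs, and no Ccr2) numbered 1234, 1017 and 1948 in CD, HFD and WD. The members summed to 6305, 3250.3 and 18821 CPM in them. Ccr2-marked cells, with the chemokine receptor of recruited monocytes and none of the 3 resident genes, numbered 226, 200 and 133, and the members summed to 7207, 2127 and 14394 CPM. Fos was 3.0-fold (2.85 to 3.16) lower in HFD than in CD in resident-marked cells and 5.88-fold (5.17 to 6.70) lower in Ccr2-marked cells. Jund was 1.06-fold (1.02 to 1.10) higher in the former and 1.53-fold (1.39 to 1.69) lower in the latter. Whether the subsets differ was not tested.

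Outside C1q cells the marker groups were small. Conventional dendritic-marked cells (40, 60 and 58 in CD, HFD and WD) held 6902, 1463 and 9432 CPM of member UMIs. Monocyte-marked cells (22, 19 and 104) held 6833, 1385 and 9621 CPM. Fibroblast-marked cells (44, 12 and 37) held 5971, 3741 and 14298 CPM. Each of these 3 groups was lowest in HFD and highest in WD. Neutrophil-marked cells held 9534 CPM in 11 CD cells and 14011 CPM in 109 WD cells. The 151 NK-marked cells of WD held 3153 CPM, against 18456 CPM in C1q cells of the same library, so the level was not uniform over the WD cells.

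**Figure D3:**
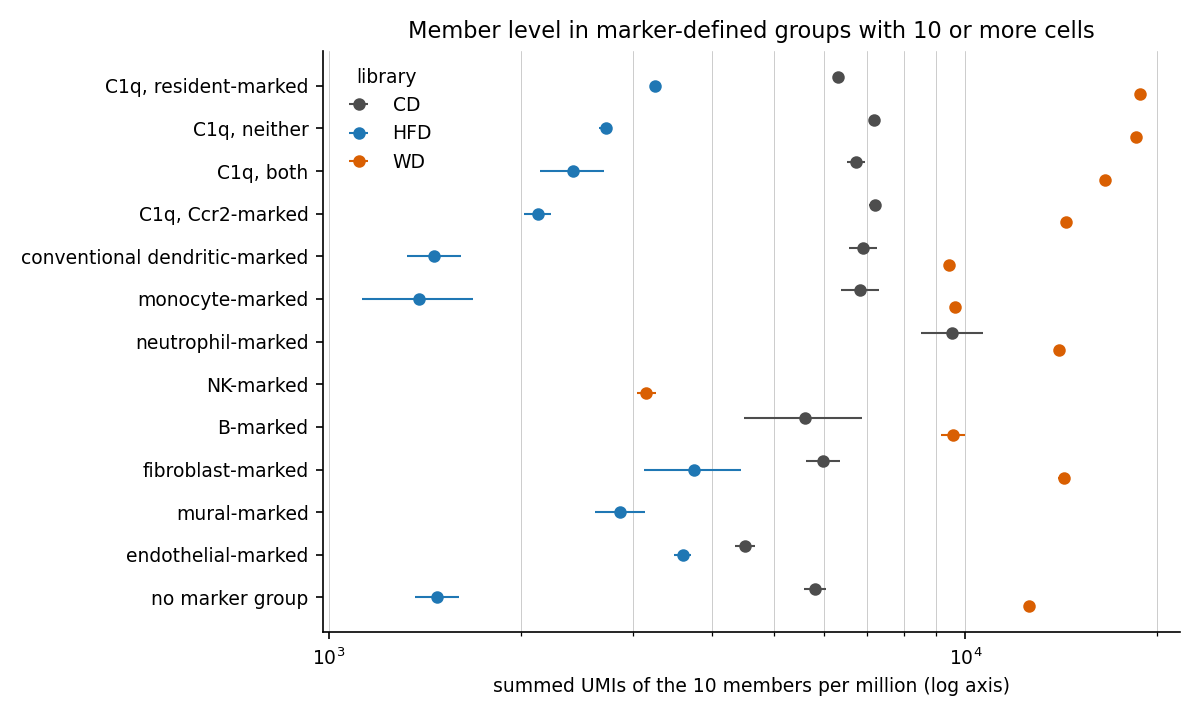
Summed level of the 10 members in CPM (log axis) in marker-defined groups with at least 10 cells, by library; bars are exact 95% Poisson intervals for counting error. The C1q subsets read 2127 to 3250.3 in HFD, 6305 to 7207 in CD and 14394 to 18821 in WD, and the NK-marked cells of WD read 3153.

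The difference showed in the typical C1q cell. After thinning to 1000 UMIs, a C1q cell held a median of 5 member UMIs in CD, 2 in HFD and 17 in WD. Cells without any member UMI made up 7.46% (6.42 to 8.61) in CD, 19.6% (17.9 to 21.4) in HFD and 1.53% (1.16 to 1.98) in WD. At least 5 different members were found together in 31.2%, 5.89% and 78.5% of the cells in the same order. The tenth of C1q cells with the most member UMIs held 33.7%, 41.8% and 22.7% of them. Endothelial cells held a median of 3 in CD and 3 in HFD, with means of 4.35 and 3.46. At least 5 members were found together in 13.7% of them in CD and 4.52% in HFD, and no member in 9.64% and 9.03%. Other cells held a median of 6, 1 and 9 in CD, HFD and WD.

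Single genes took the same course. Fos was found in 59.4% (57.4 to 61.4) of thinned C1q cells for CD, 23.2% (21.4 to 25.1) for HFD and 83.5% (82.2 to 84.7) for WD. Without thinning the shares were 81.9%, 42.2% and 98.6%. Fosb was found in 19.3%, 3.85% and 71.1% of thinned cells (unthinned 46.5%, 8.59% and 95.1%). The stress factor Atf3 was found in 16.05%, 4.396% and 69.7% (unthinned 39.2%, 12.3% and 95.2%). Jund was found in 64.2%, 57.0% and 74.9% (unthinned 93.4%, 82.7% and 99.1%), the narrowest span of these 4. In endothelial cells Fos was found in 19.8% of thinned cells for CD and 4.52% for HFD, and Klf4 in 39.1% and 51.1% (unthinned Fos 37.1% and 10.5%, Klf4 66.0% and 70.6%). No cell type here is known to lack these genes, so free RNA was read from near-empty barcodes instead.

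**Figure D4:**
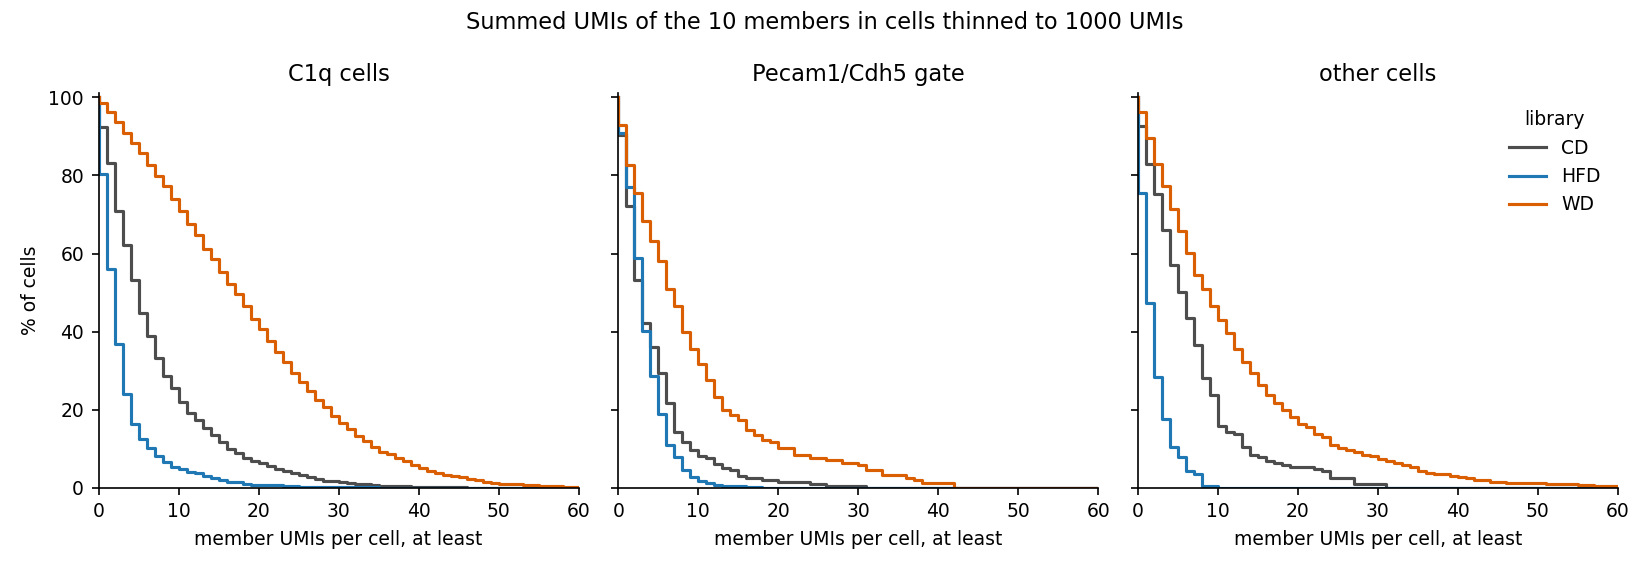
Percentage of cells (vertical axis) with at least the number of summed member UMIs on the horizontal axis, after thinning every cell to 1000 UMIs, in the 3 cell classes of each library. In C1q cells 43.2% of WD cells, 6.85% of CD cells and 0.849% of HFD cells reach 20 UMIs.

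Near-empty barcodes, with 1 to 100 UMIs, describe free RNA in CD (271466 barcodes) and HFD (287637); the smallest WD barcode analysed has 504 UMIs. Fos made up 629 CPM of them in CD and 144 CPM in HFD, and Jund 300.4 and 321 CPM. Free RNA thus showed the lower Fos of HFD too. Relative to Lyz2, a lysozyme gene of macrophages, near-empty barcodes held 35.1 member UMIs per 100 Lyz2 UMIs in CD, against 37.1 in C1q cells, and 14.3 in HFD, against 13.5. Endothelial cells held 564 in CD and 338 in HFD. For Fos alone they held 56.7 per 100 Lyz2 UMIs in CD against 8.95 in near-empty barcodes, and 7.96 against 2.11 in HFD. Their Fos UMIs thus exceeded the near-empty ratio in both libraries. In other cells of HFD the Fos ratio was 1.35, below the near-empty one. Macrophage markers, Lyz2 among them, summed to 8469 CPM in those cells, against 1595 CPM in endothelial cells of HFD. Their Lyz2 need not be free RNA, so this ratio does not show how much of their Fos was.

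Depth and mitochondrial share also differed between the libraries, and the mitochondrial limit removed 6.33% of CD, 11.9% of HFD and 26.1% of WD barcodes. Within the strata that had a value the libraries did not overlap. C1q cells split at 2.5% and 5% mitochondrial UMIs held 6275 to 7533 CPM of member UMIs for CD, 2288 to 3053 for HFD and 17956 to 19135 for WD. Split at 2500, 5000 and 10000 UMIs they held 6089 to 7939.6 CPM for CD, 2603 to 3120.5 for HFD and 13685 to 20053 for WD, with no HFD value for the deepest cells, at 10000 UMIs or more.

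Related gene lists place the members among their relatives and targets, here in C1q cells for HFD against CD. Over the 11239 genes tested there, 8.41% were lower and 6.74% higher, with a median log2 ratio of -0.03. Other immediate early transcription factors were lower for 10 of 14 tested and higher for 0, with a median log2 ratio of -1.22. Nr4a2, a paralog of Nr4a1, had 12.6 CPM in CD against 2.12 in HFD. Of the feedback regulators, which dampen kinases or destabilise messenger RNA after induction, 14 of 17 were lower and 0 higher, with a median of -1.62. Gadd45b, a stress-induced signalling protein, had 122 against 8.79 CPM, 13.9-fold (10.7 to 18.4) lower. Inducible cytokine and chemokine genes were lower for 12 of 12, with a median of -2.66. The neutrophil chemokine Cxcl2 had 1217 CPM in CD against 72.9 in HFD, 16.7-fold (15.2 to 18.3) lower.

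Genes of the same protein class or upstream of the members were mostly within the limit in that comparison, as were most of all genes tested. Among other AP-1 and related leucine zipper genes 1 of 16 tested was lower (Maff, 5.97 against 1.52 CPM) and 0 higher, with a median of 0.01. Of the upstream kinases and factors, such as the MAP kinases that phosphorylate Fos and Jun or their activators, 0 of 15 were lower and 0 higher, with a median of -0.04. The heat shock genes split: 3 of 10 were lower, 1 was higher and the median was 0.28. Hspa1a, an inducible chaperone, had 614 against 152 CPM, 4.03-fold (3.77 to 4.31) lower. Hsph1, a co-chaperone, had 17.7 against 33.5 CPM, 1.89-fold (1.55 to 2.30) higher. The class of other cells differed: 7 of 13 tested AP-1 and related genes were lower in HFD and 0 higher, with a median of -0.70. Of the upstream genes there, 1 of 14 was lower and 3 were higher. Among all genes tested in that class, 18% were lower and 12.8% higher.

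In endothelial cells 9.09% of all genes tested were lower in HFD and 14.1% higher. Feedback regulators were lower for 6 of 14, with a median of -0.42. Other immediate early factors were lower for 0 of 9 and higher for 3. Heat shock genes were higher for 7 of 10, with a median of 1.03 against 0.06 over all genes tested. Hspa1a had 174 CPM in CD against 289 in HFD, 1.66-fold (1.34 to 2.07) higher, the opposite direction to C1q cells, a difference that was not tested. In C1q cells of WD, 10 of 14 other immediate early factors were higher than in CD, as were 13 of 17 feedback regulators and 10 of 12 inducible cytokine and chemokine genes. So were 11 of 17 other AP-1 genes, 9 of 15 upstream genes and 6 of 10 heat shock genes, where 46.5% of all genes were. Jdp2, an AP-1 repressor, had 8.08 CPM in CD against 263 in WD. Unlike the members, the related lists and Jdp2 were not set beside genes of like intron length, with which the WD ratios moved.

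**Figure D5:**
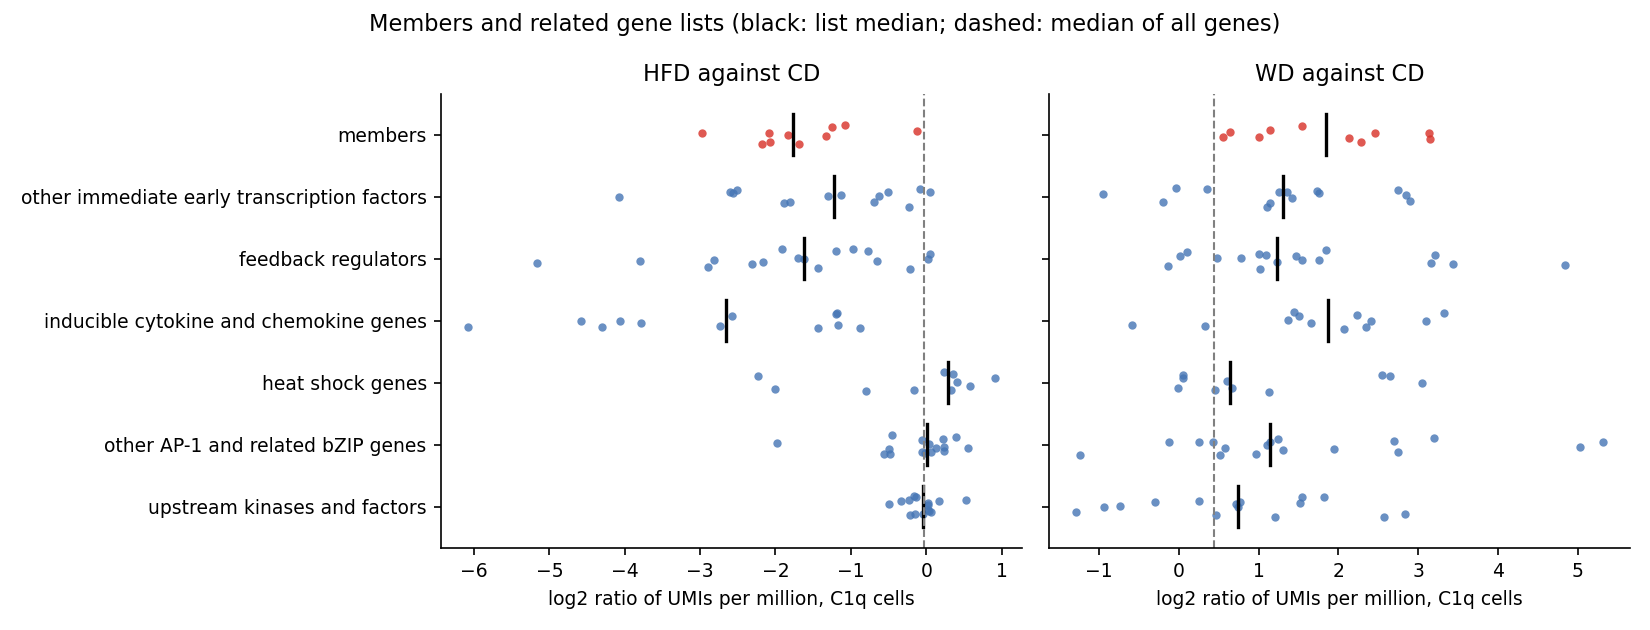
Log2 ratio in C1q cells of each member (red) and each gene of 6 related lists with at least 20 UMIs over both libraries, for HFD to CD and WD to CD; a gene with 0 UMIs in 1 library is drawn at the level of 3 UMIs. Black bars are list medians and the dashed line the median of all genes tested; for HFD to CD the medians are -1.76 for the members, -2.66 for inducible cytokine and chemokine genes and -0.04 for upstream kinases and factors.

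Across single C1q cells the members varied together to different degrees. Over the 45 pairs of members, Pearson's r of log counts across thinned cells had a median of 0.23 for CD (2293 cells), 0.16 for HFD (2002 cells) and 0.30 for WD (3717 cells). The cells of a library share its preparation and, after thinning, 1 depth, so these values are descriptions. Sparse counts limit r, and the libraries were not matched for member level: Nr4a1 was found in 10 of the 2002 thinned HFD cells. Fos with Junb was the highest pair in CD (0.54) and HFD (0.41), and Fos with Jun in WD (0.49).

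Of 5744 other genes with at least 100 UMIs in C1q cells of each library, Dusp1 followed the summed member count most closely, by its lowest r over the 3 libraries. Dusp1 encodes a phosphatase that inactivates MAP kinases, and its r was 0.57 for CD, 0.41 for HFD and 0.53 for WD. Among the genes that followed were Socs3, Zfp36, Cxcl2, Klf6, Klf2, Btg2, Hspa1a and Nfkbiz, with lowest values of 0.27 down to 0.17. Dusp1 itself had 1151, 427 and 2689 CPM in CD, HFD and WD. Zfp36, which destabilises cytokine messages, had 335, 145 and 2999.6 CPM.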

How the data were processed

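Members and gene lists were chosen with earlier results of these data known. The authors deposited unnormalized UMI count matrices, made with software version 3.0.1 (CD, HFD) and with Cell Ranger 7.2.0 (WD), per the file headers; the build GRCm38 and Seurat are named per the submitters' processing notes. Columns of other samples numbered 0. The 30406 genes shared by Ensembl ID were used, of which 30329 matched GENCODE vM21. Library totals were 17464149 (CD), 16630481 (HFD) and 79269380 UMIs (WD), and UMIs outside the shared genes made up 0.0486%, 0.0507% and 0.627%.

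The limits on barcodes were 1000 UMIs, 200 genes and 10% mitochondrial UMIs. Counts were summed per library and class, and CPM took the shared genes as the total. With 1 library per diet no test was made. Levels carry exact Poisson intervals, ratios exact conditional ones and shares Clopper-Pearson ones (95%, counting error only). A gene was tested with at least 20 UMIs over both libraries and called past 1.5-fold; a count of 0 was set to 3 UMIs. For shares and spread, cells were thinned to 1000 UMIs, which left out none of the kept cells. Doublets were left to the sorting gate, with removal of the highest Scrublet scores (0.8% per 1000 cells) as an alternative. Named genes are the 10 members, up to 4 genes per related list with the largest HFD to CD ratio in C1q cells, and the 10 genes most like the members by r; the text prints values for some of these, and 1 gene of the last group is not reported here. The ratio and interval code was tested on simulated data. Promoter windows came from RefSeq (GRCm38.p6). The alternatives changed the limits on UMIs, mitochondrial share and C1q, the endothelial rule, the weighting, thinning and scaling of cells, the minimum count and doublet removal. Python 3.11.15, numpy 2.4.6, scipy 1.17.1, pandas 2.3.3, scanpy 1.11.5 and matplotlib 3.10.9 were used.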

Additional observations from a re-analysis of the deposited data

Results flagged for a closer look

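Klf4 and Ier2 had opposite directions in different cell classes of the same pair of libraries. The log2 ratio of Klf4, HFD to CD, was 0.53 in endothelial cells and -1.34 in C1q cells. For WD to CD it was -0.31 in the Pecam1 or Cdh5 gate and 2.28 in C1q cells, and for WD to HFD -0.85 in the gate and 3.61 in C1q cells. The log2 ratio of Ier2, WD to CD, was -0.32 in the gate and 0.55 in C1q cells. With 1 library per diet these differences between classes were not tested, and the gate holds few cells with endothelial markers in WD, so the WD values compare unlike cells.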

How the results depend on the processing

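Under 13 alternatives, 172 counts of members past 1.5-fold stayed within 1.5 times the reported count and 8 moved, all outside C1q cells. Of the log2 ratios of single members in C1q cells, 287 stayed within the counting interval of the reported value, 103 moved outside it and 0 changed direction. Among them the WD to CD ratio of Nr4a1 ran from 1.79 to 2.88. The alternatives for the endothelial rule and the minimum count could not alter these ratios or the counts in C1q cells. Values under them stayed by construction. Members higher in HFD than in CD in endothelial cells (1 as reported) numbered 0 with a minimum of 500 UMIs, 0 with at least 3 of 10 other endothelial markers, 0 with median-of-ratios scaling, 2 with genes of short introns as the total and 2 with the highest doublet scores removed. Members lower in WD than in CD in the Pecam1 or Cdh5 gate (0 as reported) numbered 2 with C1q at 0.1% or more and 1 with cells thinned before summing. Members higher in WD than in CD in other cells (6 as reported) numbered 10 with C1q at 1% or more. The WD gate gave no value under the rule of 3 of 10 markers. In C1q cells the WD to CD log2 ratio of Jund ran from 0.26 to 1.07 and passed to the other side of 1.5-fold under 4 alternatives, its WD to HFD ratio from 0.36 to 1.17 under 2, and the WD to CD ratio of Ier2 from 0.25 to 0.98 under 1. The median WD to CD log2 ratio over all genes with at least 100 UMIs was 0.34 as reported, 0.04 with median-of-ratios scaling and 0.77 with genes of short introns as the total. The cause of these moves was not tested. No paired analysis was possible because each diet has 1 library.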
